A study of Saccharomyces cerevisiae with 12 samples.

Results

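The 8 regulators of the phosphate-responsive (PHO) pathway of budding yeast were followed across 2 strains and 2 media. They are the activators PHO4 and PHO2, the cyclin PHO80, the kinase PHO85, its inhibitor PHO81, the inositol pyrophosphate kinases KCS1 and VIP1, and the phosphatase DDP1. The genes were taken by their annotated symbols, and all 8 were found among the 5449 yeast genes measured, each on 1 probe set that no other gene shares. RNA came from Saccharomyces cerevisiae BY4741, a haploid laboratory strain, and was hybridised to 12 Affymetrix Yeast Genome 2.0 arrays. All cells carried the plasmid p416-Tefmut2, in the mutant with spt15-300 and in the wild type with SPT15. SPT15 encodes the TATA-binding protein and spt15-300 is a mutant form of it. The labels name no deletion of the chromosomal SPT15, so both strains are read here as carrying the plasmid's form beside their own gene.

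The groups were the mutant in the ethanol medium, the wild type in the ethanol medium, the mutant without ethanol and the wild type without ethanol, with 3 arrays each. Ethanol was 5% with 60 g/L glucose in the ethanol medium, and 0% with 20 g/L glucose in the other. The effects of ethanol and of glucose cannot be told apart, since each medium fixes both. Cultures grew at 30 °C in YSC medium without uracil, in closed tubes, up to an optical density of about 0.4. Values are log2 intensities, the log2 of the authors' RMA values (a summary of the probes of each gene after quantile scaling of the arrays). Differences are log2 changes between group means within 1 probe set, and levels of different genes are not set against each other. Differences were tested with limma over all 5449 genes and called at a Benjamini-Hochberg adjusted p under 0.05.

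In yeast with enough phosphate, the Pho80-Pho85 kinase phosphorylates Pho4, which then leaves the nucleus. When phosphate is short, Pho81 inhibits the kinase, and Pho4 together with the homeodomain protein Pho2 turns on acid phosphatases, phosphate transporters and polyphosphate synthesis. PHO81 is itself a target of Pho4, so it is both a regulator and a target of the pathway. Kcs1 and Vip1 make inositol pyrophosphates, which bind SPX domains such as that of Pho81, and Ddp1 removes them. Most of this control acts on the proteins and on where they are in the cell, and arrays measure only the transcripts.

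The submitters' title calls 1 array of the mutant in the ethanol medium, replicate 2, an outlier. It was left out, which leaves n = 2 in that group. It correlated with the other arrays at r = 0.747 to 0.789, while the 11 arrays used correlated with each other at r = 0.943 to 0.999. The a-type mating genes MFA1, MFA2, STE2 and BAR1 had group means of 9.79 to 13.45. The alpha-type genes MF(ALPHA)1, MF(ALPHA)2 and STE3 had 7.49 to 8.51, above the background of 7.24 on average. Background is the 95th percentile of the 1746 annotated probe sets that matched no gene in RefSeq's table of S. cerevisiae. The species of those probe sets was not checked. Among genes that BY4741 lacks in working form, MET17 stayed at 7.68 to 7.90, HIS3 lay at 11.31 to 11.81, and LEU2 stood at 10.21 in the mutant and 9.65 in the wild type in the ethanol medium, and at 8.07 in the mutant and 7.99 in the wild type without ethanol. SPT15 differed by -0.05 between strains in the ethanol medium (adjusted p = 0.376) and by -0.02 without ethanol (adjusted p = 0.801). URA3, the marker of such plasmids, was higher in the mutant by 0.19 with ethanol (adjusted p = 0.0130) and by 0.09 without (adjusted p = 0.0646, not called). The SPT15 probe set does not tell the plasmid's copy from the chromosome's, and it checks no strain label. The difference of 3′ over 5′ probe sets of 8 control genes, a measure of RNA quality, was 0.379 to 0.400 in the mutant and 0.361 to 0.435 in the wild type in the ethanol medium, and 0.240 to 0.266 in the mutant and 0.310 to 0.359 in the wild type without ethanol. It moved with the medium in both strains and with the strain without ethanol, and its part in the results below was not tested.

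All 8 regulators were expressed. No value on the 11 arrays lay less than 2.57 above that array's background, and none reached the mean level above which the brightest 1% of genes lie, 13.67. Their group means spanned very different ranges. PHO81 spanned 1.21 between its highest and lowest group, rank 199 of 5449 genes, while the middle gene of the array spanned 0.31. PHO4 spanned 0.50, PHO80 0.41, PHO85 0.35 and VIP1 0.29. DDP1 spanned 0.17, KCS1 0.070 and PHO2 0.063. PHO81 was thus among the genes that varied most on the array, and KCS1 and PHO2 among those that varied least.

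**Figure D1:**
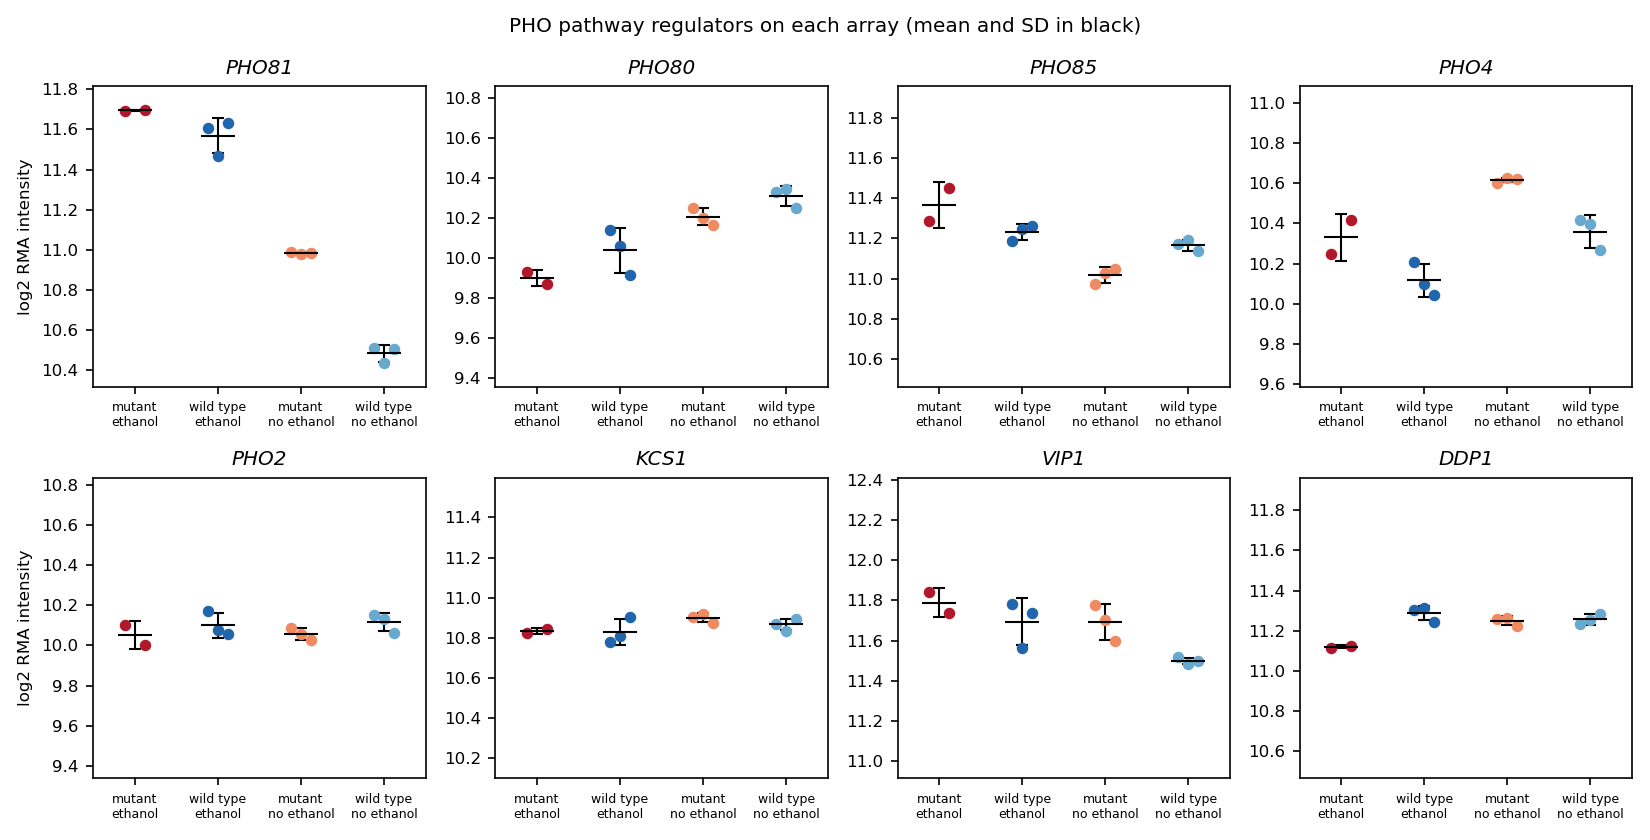
Log2 intensity of each regulator on each of the 11 arrays used (points), with the group mean and SD in black, for the mutant and the wild type in the ethanol medium and without ethanol. Every panel spans the same height, so slopes can be compared between panels but levels cannot; PHO81 shows the widest spread of group means (1.21), and PHO2 and KCS1 are nearly flat (0.063 and 0.070).

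PHO81 encodes the inhibitor of Pho80-Pho85. It read 11.69 and 11.70 in the mutant and 11.61, 11.47 and 11.63 in the wild type in the ethanol medium. Without ethanol it read 10.99, 10.98 and 10.98 in the mutant, against 10.51, 10.44 and 10.50 in the wild type. The wild type without ethanol was lowest, the mutant without ethanol lay between, and all ethanol-medium arrays lay above both. In RNA from whole cultures, fewer cells expressing a gene and less RNA per cell cannot be told apart.

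Without ethanol, PHO81 was 0.50 higher in the mutant (SE 0.045, 1.41-fold, adjusted p = 9.82e-05), rank 129 from the top of 5449 genes, with group means of 10.98 ± 0.0062 in the mutant and 10.48 ± 0.041 in the wild type (SD, n = 3 each). In the ethanol medium the strains averaged 11.70 ± 0.0031 in the mutant (SD, n = 2) and 11.57 ± 0.087 in the wild type (SD, n = 3), and the difference of 0.13 (95% interval 0.01 to 0.24) did not pass (adjusted p = 0.121), although both mutant arrays lay above all 3 wild-type arrays. The ethanol medium raised PHO81 by 0.71 in the mutant (SE 0.050, 1.64-fold, adjusted p = 3.01e-06) and by 1.09 in the wild type (SE 0.045, 2.12-fold, adjusted p = 6.63e-08). These 3 calls held with each of the 11 arrays left out in turn. With the array titled an outlier in the fit and no weights per array, the call in the wild type between media was the only one left among the 8 regulators in the 5 comparisons. That fit called 7.49% of all genes in the wild type between media. On the array titled an outlier PHO81 read 10.79, at that array's background of 10.78, where background was 7.10 to 7.36 on the 11 arrays used.

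The response of PHO81 to the medium was 0.37 smaller in the mutant (95% interval -0.52 to -0.22, adjusted p = 0.0339), one of 66 genes called in this test, or 1.21% of all genes. No other regulator was called in it. The call was lost in 9 of the 11 fits that left out 1 array (adjusted p = 0.00895 to 0.114 over the 11), with the value between -0.42 and -0.34. It was kept only without wild type in the ethanol medium replicate 2 (adjusted p = 0.00895) or replicate 3 (0.0251). In the order of its levels, PHO81 in the ethanol medium did not differ between strains beyond the test, stood 0.59 above the mutant without ethanol even in the wild type (adjusted p = 4.49e-06), and the mutant without ethanol stood above the wild type without ethanol.

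PHO80 encodes the cyclin that directs Pho85 to Pho4. It read 9.93 and 9.87 in the mutant and 10.14, 10.06 and 9.92 in the wild type in the ethanol medium, and 10.25, 10.20 and 10.17 in the mutant and 10.33, 10.34 and 10.25 in the wild type without ethanol. Each strain's ethanol-medium arrays lay below all its arrays without ethanol. The ethanol medium lowered it by 1.24-fold in the mutant (log2 change -0.30, SE 0.063, adjusted p = 0.00232) and by 1.21-fold in the wild type (-0.27, SE 0.057, adjusted p = 0.00229). The strains differed by -0.14 in the ethanol medium (adjusted p = 0.172) and by -0.10 without ethanol (adjusted p = 0.255), neither past the threshold. In the order of its levels, only the step between the 2 media was told apart, with the wild type in the ethanol medium 0.17 below the mutant without ethanol (adjusted p = 0.0268).

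PHO85 encodes the cyclin-dependent kinase, which serves many cyclins besides Pho80. It read 11.29 and 11.45 in the mutant and 11.19, 11.25 and 11.26 in the wild type in the ethanol medium. Without ethanol it read 10.97, 11.03 and 11.05 in the mutant, against 11.17, 11.19 and 11.14 in the wild type. The mutant's arrays lay above the wild type's in the ethanol medium and below them without ethanol. PHO85 was 0.35 higher in the ethanol medium in the mutant (SE 0.052, 1.28-fold, adjusted p = 3.35e-04), and in the wild type the change of 0.07 (95% interval -0.04 to 0.17) did not pass (adjusted p = 0.247). The difference between these 2 responses was 0.29 (95% interval 0.13 to 0.44) and did not pass over all genes (adjusted p = 0.0874). Between strains it differed by 0.14 in the ethanol medium (adjusted p = 0.113) and by -0.15 without ethanol (adjusted p = 0.0551). The value without ethanol passed with only those 6 arrays in the fit (adjusted p = 0.0230).

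PHO4 encodes the activator itself. It read 10.25 and 10.42 in the mutant and 10.21, 10.10 and 10.04 in the wild type in the ethanol medium, and 10.60, 10.63 and 10.62 in the mutant and 10.42, 10.40 and 10.27 in the wild type without ethanol. The mutant without ethanol was the highest group, with no array of another group in its range. PHO4 was 0.26 higher in the mutant without ethanol (SE 0.059, 1.19-fold, adjusted p = 0.0171). This call was lost in 3 of 11 fits that left out 1 array: without wild type without ethanol replicate 3 (adjusted p = 0.0547), or without mutant without ethanol replicate 2 (0.0615) or replicate 3 (0.0589).

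PHO4 was 0.22 higher in the mutant with ethanol (95% interval 0.07 to 0.36) and did not pass (adjusted p = 0.0623). The ethanol medium lowered PHO4 by 1.22-fold in the mutant (log2 change -0.28, SE 0.066, adjusted p = 0.00422) and by 1.18-fold in the wild type (-0.24, SE 0.059, adjusted p = 0.00539), and both calls held with each array left out. The mutant in the ethanol medium and the wild type without ethanol differed by -0.03 (adjusted p = 0.724), with overlapping arrays. Thus the transcript of the activator and that of the kinase's cyclin were both lower in the ethanol medium, where that of the inhibitor was higher.

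PHO2 encodes the homeodomain partner of Pho4. It read 10.10 and 10.002 in the mutant and 10.17, 10.08 and 10.06 in the wild type in the ethanol medium, and 10.09, 10.06 and 10.03 in the mutant and 10.15, 10.13 and 10.06 in the wild type without ethanol. The groups overlapped. Its change with the ethanol medium was -0.01 in the mutant (95% interval -0.12 to 0.11) and -0.01 in the wild type (-0.11 to 0.09). Between strains it differed by -0.05 in the ethanol medium (adjusted p = 0.514) and by -0.06 without ethanol (adjusted p = 0.439).

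KCS1 and VIP1 encode the 2 kinases that make inositol pyrophosphates. KCS1 read 10.82 and 10.84 in the mutant and 10.78, 10.81 and 10.90 in the wild type in the ethanol medium, and 10.90, 10.92 and 10.88 in the mutant and 10.87, 10.84 and 10.89 in the wild type without ethanol. It was called in no comparison, with a change with the ethanol medium of -0.07 in the mutant (95% interval -0.16 to 0.03) and -0.04 in the wild type (-0.12 to 0.05). Its 2 mutant arrays in the ethanol medium lay below the 3 without ethanol.

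VIP1 read 11.84 and 11.74 in the mutant and 11.78, 11.56 and 11.74 in the wild type in the ethanol medium, and 11.78, 11.70 and 11.60 in the mutant and 11.52, 11.48 and 11.50 in the wild type without ethanol. The wild type without ethanol was lowest, below every array of the other groups. The ethanol medium raised it in the wild type by 0.19 (SE 0.064, 1.14-fold, adjusted p = 0.0231), and in the mutant the change of 0.10 (95% interval -0.06 to 0.26) did not pass (adjusted p = 0.258). The difference between these responses was -0.10 (adjusted p = 0.592). Between strains VIP1 differed by 0.09 in the ethanol medium (adjusted p = 0.379) and by 0.19 without ethanol (adjusted p = 0.0702), and the value without ethanol passed with array medians aligned (adjusted p = 0.0293), with repeated quantile scaling (0.0336) or with only those 6 arrays in the fit (0.0321). The call in the wild type was lost in 4 of 11 fits that left out 1 array: without wild type in the ethanol medium replicate 1 (adjusted p = 0.0800) or replicate 3 (0.0698), or without wild type without ethanol replicate 2 (0.0641) or replicate 3 (0.0538).

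DDP1 encodes the diphosphatase that cleaves inositol pyrophosphates and polyphosphate. It read 11.12 and 11.12 in the mutant and 11.31, 11.31 and 11.25 in the wild type in the ethanol medium, and 11.26, 11.26 and 11.22 in the mutant and 11.23, 11.25 and 11.28 in the wild type without ethanol. The mutant in the ethanol medium lay below every array of the other 3 groups. In the ethanol medium DDP1 was 1.12-fold lower in the mutant (log2 change -0.17, SE 0.036, adjusted p = 0.0237), and without ethanol the strains differed by -0.01 (95% interval -0.08 to 0.07). The ethanol medium lowered it in the mutant by 1.09-fold (log2 change -0.13, SE 0.036, adjusted p = 0.0115), while in the wild type the change was 0.03 (adjusted p = 0.424). The difference between the 2 responses was -0.16 (adjusted p = 0.135) and did not pass.

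The strain call of DDP1 was lost with only the arrays of the ethanol medium in the fit (adjusted p = 0.218), a fit that called 6 of all 5449 genes. It was also lost in 4 of 11 fits that left out 1 array: without mutant in the ethanol medium replicate 1 (0.0688) or replicate 3 (0.111), or without wild type in the ethanol medium replicate 1 (0.0516) or replicate 2 (0.0650). The fall in the mutant held in all 11.

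Counted together, 2 of 8 regulators were called between strains without ethanol, PHO81 and PHO4, both higher in the mutant, where 16.3% of all genes were called. In the ethanol medium 1 of 8 was called, DDP1, where 11.7% of all genes were. At an unadjusted p under 0.05 there were 4 of 8 in each medium, where 31.3% of all genes were in the ethanol medium and 30.5% without ethanol. Between media, 5 of 8 were called in the mutant (PHO81 and PHO85 higher, PHO80, PHO4 and DDP1 lower), where 62.5% of all genes were. In the wild type 4 of 8 were called (PHO81 and VIP1 higher, PHO80 and PHO4 lower), where 60.8% were. The shares of regulators called lie near those of all genes, so the counts single out nothing about the regulators as a group. PHO81 had the widest change of the 8 in 3 of these comparisons, with ranks among all genes of 129 between strains without ethanol, and 261 in the mutant and 136 in the wild type between media.

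The 2 diagonal pairs, added to order the levels, gave 5 of 8 called for the mutant in the ethanol medium against the wild type without ethanol (64.3% of all genes) and 4 of 8 for the wild type in the ethanol medium against the mutant without ethanol (60.0%). PHO81 had the widest gap in the first pair, 1.21 (SE 0.050, 2.32-fold). PHO4 was 1.41-fold lower in the second (log2 change -0.50, adjusted p = 7.35e-05).

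The median log2 change of the 8 regulators was 0.05 in the mutant against the wild type in the ethanol medium and 0.01 without ethanol, and -0.04 in the mutant and 0.01 in the wild type between media. The medians of all genes were -0.01 between strains in the ethanol medium and -0.03 without ethanol, and 0.02 in the mutant and 0.01 in the wild type between media. Single regulators moved, and the group did not move one way.

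**Figure D2:**
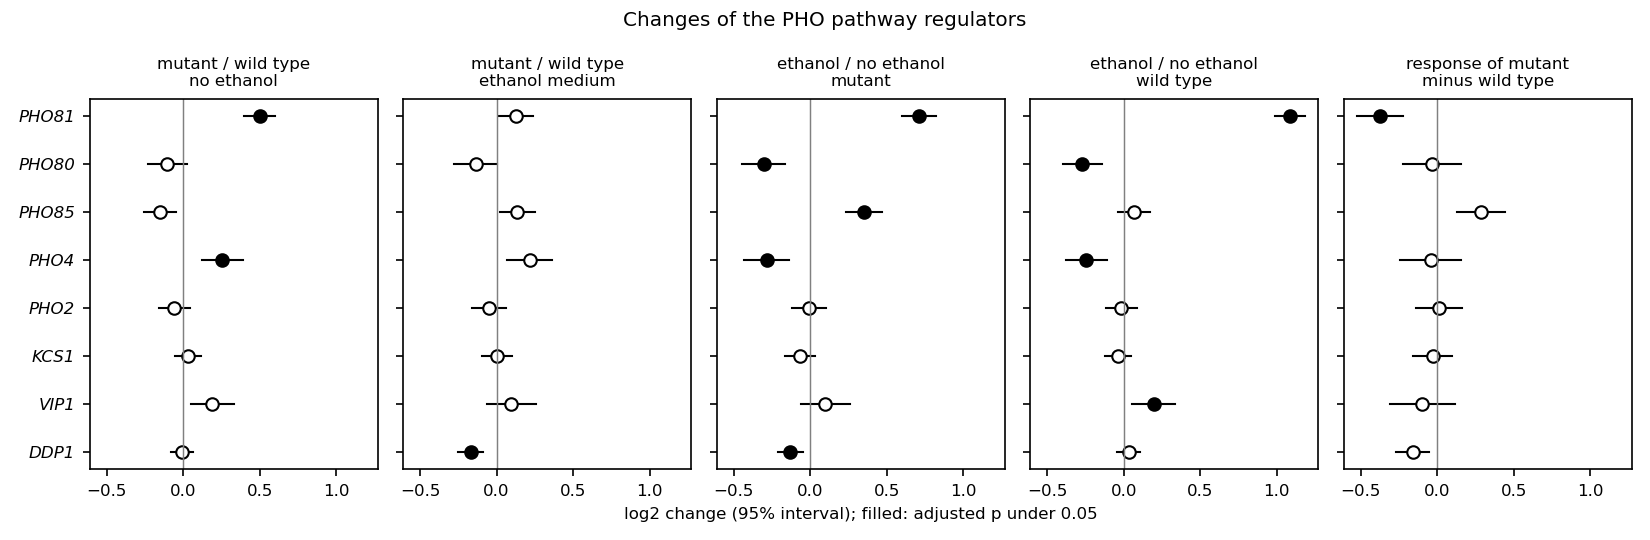
Log2 change of each regulator (circles) with its 95% interval (lines) in 5 comparisons, each named as first group over second; the rightmost panel is the mutant's response to the ethanol medium minus the wild type's. Filled circles passed an adjusted p under 0.05: PHO81 is filled in 4 of 5 panels, PHO4 in 3, PHO80 in 2 and PHO2 and KCS1 in none.

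The other genes of the pathway were taken as lists by their roles. The lists were chosen with earlier results of these data known, so their counts describe these data and are no independent test. Each count of a list is read against the share of all genes called in that direction: 5.73% higher and 5.98% lower between strains in the ethanol medium, 8.26% and 8.07% without ethanol, 33.8% and 28.7% between media in the mutant, and 31.7% and 29.0% in the wild type. Of 17 genes of the phosphate regulon, acid phosphatases, phosphate transporters and polyphosphate enzymes among them, 16 were measured, and PHO12 was not analysed here. Without ethanol 12 of 16 rose and 0 fell in the mutant, with a median of 0.66 against -0.03 for all genes. PHO5, the secreted acid phosphatase, rose by 2.49 (adjusted p = 1.69e-07). PHO84, the high-affinity phosphate transporter, rose by 2.18 (adjusted p = 1.69e-07). VTC3, of the polyphosphate polymerase complex, rose by 1.14 (adjusted p = 1.56e-06). The rise of PHO81, by 0.50, was smaller than the median of this list.

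In the ethanol medium 3 of 16 were higher and 1 lower in the mutant, with a median of 0.03 against -0.01 for all genes. GPP2, a glycerol phosphatase, was higher by 0.28 (adjusted p = 0.00911), GIT1, a glycerophosphoinositol transporter, by 0.40 (adjusted p = 0.0168) and PHM8, a phosphatase of nucleotides, by 0.67 (adjusted p = 0.0264). PHO11, an acid phosphatase nearly identical to PHO12 so that its probe set may read both, was lower by 0.39 on the log2 scale (change -0.39, adjusted p = 0.0188).

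Between media 13 of 16 rose and 1, PHO11, fell in the mutant (median 0.44, all genes 0.02), and 15 of 16 rose and 0 fell in the wild type (median 1.33, all genes 0.01). GIT1 rose by 3.53 in the mutant (adjusted p = 1.06e-09) and by 3.23 in the wild type (adjusted p = 8.41e-10). PHO8, the vacuolar alkaline phosphatase, rose by 0.87 in the mutant and by 1.41 in the wild type. PHO84 rose by 0.27 in the mutant (adjusted p = 0.0139) and by 2.49 in the wild type (adjusted p = 6.91e-09). The response was smaller in the mutant for 12 of 16 genes and larger for 0, where 1.21% of all genes were called in either direction. With aligned medians 10 of 16 were called (SPL2 and PHM8 lost), and with repeated quantile scaling 11 of 16 (PHM8 lost). For PHO5 this difference was -2.50 and for PHO84 -2.22 (adjusted p = 8.16e-06 for each), against -0.37 for PHO81.

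Of the 9 other cyclins of Pho85, 3 rose and 1 fell in the mutant without ethanol, and 1 rose in the mutant in the ethanol medium. PCL5, whose product directs Pho85 to the amino acid regulator Gcn4, was higher in the mutant by 0.24 in the ethanol medium (adjusted p = 0.0168) and by 0.40 without ethanol (adjusted p = 2.26e-04). PCL9 rose by 0.32 (adjusted p = 0.00483) and PCL6, a cyclin tied to glycogen metabolism, fell by 0.21 (change -0.21, adjusted p = 0.00588) without ethanol. Between media 7 of 9 rose in the mutant (median 0.27, all genes 0.02) and 6 of 9 in the wild type (median 0.28, all genes 0.01), and none fell. Of all genes, 33.8% rose in the mutant and 31.7% in the wild type. In either direction together, 62.5% of all genes were called in the mutant and 60.8% in the wild type. By direction, the shares of cyclins that rose lie above those of all genes, on 9 genes only. PCL5 rose by 0.70 in the mutant and by 0.86 in the wild type, and PCL10, another cyclin tied to glycogen, by 0.30 in the mutant and by 0.29 in the wild type.

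Of 4 other enzymes of inositol phosphate metabolism, limma called 0 between strains in either medium, and 0 had an unadjusted p under 0.05. PLC1, the phospholipase that starts the pathway, rose in the ethanol medium by 0.40 in the mutant (adjusted p = 4.03e-05) and by 0.51 in the wild type (adjusted p = 3.34e-06). IPK1, the kinase that makes inositol hexakisphosphate, rose by 0.20 in the wild type (adjusted p = 0.0320), a call lost with repeated quantile scaling.

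Of 6 low-affinity transporters and SPX or endoplasmic reticulum proteins of phosphate uptake, PHO86, needed for exit of Pho84 from the endoplasmic reticulum, rose by 0.27 in the mutant without ethanol (adjusted p = 0.0126). With ethanol limma called 0 of 6 between strains, and 0 had an unadjusted p under 0.05. PHO90, a low-affinity phosphate transporter with an SPX domain, was 1.05 lower on the log2 scale in the ethanol medium in the mutant (change -1.05, adjusted p = 1.45e-04) and 1.30 lower in the wild type (-1.30, adjusted p = 1.38e-05). Between media 1 of 6 rose and 2 fell in the mutant, and 1 rose and 3 fell in the wild type. In either direction together, 62.5% of all genes were called in the mutant and 60.8% in the wild type. By direction, the shares that rose lie below those of all genes and the shares that fell lie above them, on 6 genes only. With repeated quantile scaling SYG1 was called too, which gives 4 that fell in the wild type. PHO86 rose by 0.19 in the mutant and by 0.46 in the wild type, and SND3, formerly PHO88, changed by -0.18 in the mutant and by -0.15 in the wild type. PHO87, the other transporter called, changed by -0.21 in the wild type (adjusted p = 0.0272).

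**Figure D3:**
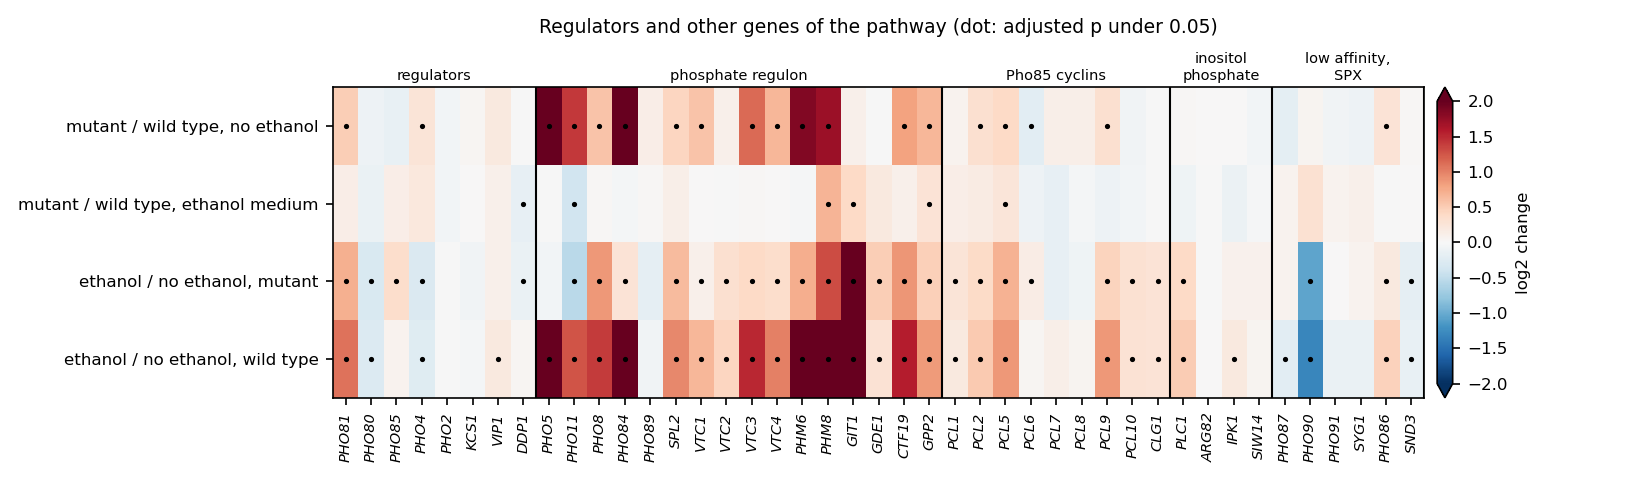
Log2 change (colour, cut at 2 in either direction) of the 8 regulators and of 4 lists of pathway genes (columns) in 4 comparisons (rows), with a dot where the adjusted p was under 0.05. In the mutant over the wild type without ethanol and in the wild type's response to the ethanol medium the phosphate regulon is red nearly throughout (12 and 15 of 16 called higher), while the regulators other than PHO81 stay pale.

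Of the 2 carriers of Pho4 across the nuclear envelope, the importin PSE1 was called in none of the 5 comparisons (unblocked fit), and the exportin MSN5 rose in the ethanol medium by 0.27 in the mutant (adjusted p = 0.00134) and by 0.17 in the wild type (adjusted p = 0.00718). Of 13 partners and targets that Pho2 shares with Bas1 or Swi5, 12 were measured. Between media 5 rose and 1 fell in the mutant, and 5 rose and 2, BAS1 and HO, fell in the wild type. In either direction together these shares do not exceed those of all genes, 62.5% in the mutant and 60.8% in the wild type. By direction, the shares that rose lie above those of all genes (33.8% in the mutant, 31.7% in the wild type). The shares that fell lie below them (28.7% and 29.0%). The fall of HO was lost with aligned medians or repeated quantile scaling. ADE2, of purine synthesis, rose by 0.68 in the mutant and by 0.66 in the wild type, and ADE17 by 0.53 in the mutant and by 0.56 in the wild type. BAS1, the activator that works with Pho2 on these genes, changed by -0.76 in the mutant (adjusted p = 0.00258) and by -0.70 in the wild type (adjusted p = 0.00212). ADE1 was the only one of the 12 called between strains, higher in the mutant by 0.25 in the ethanol medium (adjusted p = 0.0370) and by 0.22 without ethanol (adjusted p = 0.0278).

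Of 6 other substrates of Pho85, RIM15, a kinase of the entry into quiescence, was higher in the mutant by 0.38 in the ethanol medium (adjusted p = 0.0245). Without ethanol SIC1, an inhibitor of the cell cycle kinase, was higher by 0.39 (adjusted p = 9.19e-04), and CRZ1, the calcineurin-responsive activator, changed by -0.14 (adjusted p = 0.0408), a call lost with aligned medians or repeated quantile scaling. Between media 3 rose and 1, SIC1, fell in the mutant, where the fall was lost with aligned medians or repeated quantile scaling, and 2 rose in the wild type. In either direction together these shares lie near or below those of all genes, 62.5% in the mutant and 60.8% in the wild type. The share that rose in the mutant, 3 of 6, lies above the 33.8% of all genes. RIM15 rose by 0.60 in the mutant and by 0.41 in the wild type, and GSY2, glycogen synthase, by 0.61 in the mutant and by 0.71 in the wild type.

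For the 6 regulators called in any of the 5 comparisons, the genes most like them were found by the root mean square difference between centred log2 values over the 11 arrays, a description with no test. For PHO81 these were SPS4 at 0.0778, SPL2 at 0.0821 and PCL5 at 0.0867, where PHO81 itself deviated from its own mean by 0.482 and the middle gene of the array differed from it by 0.491. SPL2, a Pho4 target that acts on low-affinity phosphate uptake, and PCL5 also stand in the lists above. SPL2 averaged 12.17 in the mutant and 12.05 in the wild type in the ethanol medium, and 11.53 in the mutant and 11.09 in the wild type without ethanol. Its response to the medium was 0.32 smaller in the mutant (change -0.32, adjusted p = 0.0469), against -0.37 for PHO81, and this call of SPL2 was lost with aligned medians (adjusted p = 0.0654).

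PHO84 and PHO5 are set beside PHO81 and SPL2. PHO84 averaged 13.52 in the mutant and 13.57 in the wild type in the ethanol medium, and 13.26 in the mutant and 11.07 in the wild type without ethanol. PHO5 averaged 11.62 in both strains in the ethanol medium, and 11.67 in the mutant and 9.18 in the wild type without ethanol. The mutant without ethanol was thus within 0.27 of its ethanol-medium level for PHO5 and PHO84. It lay between the wild type without ethanol and the ethanol medium for PHO84 too, as for PHO81, SPL2 and PCL5. PHO8, VTC3 and VTC4 of the regulon also had this order, so it is not particular to PHO81. PHO84 in the ethanol medium was close to 13.67, above which the brightest 1% of genes lie. Whether this narrowed its step was not tested.

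**Figure D4:**
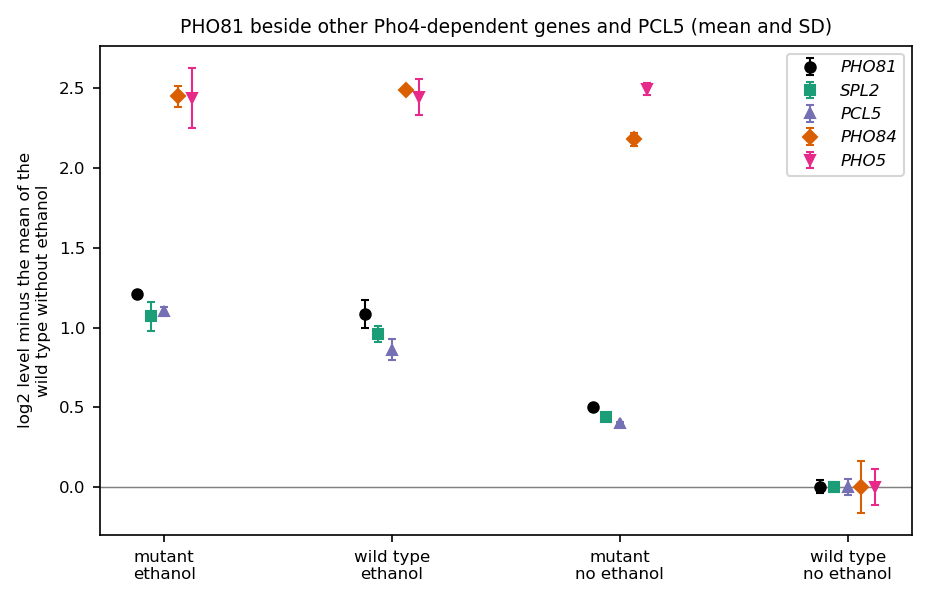
Group means of 5 genes (symbols, with SD) as log2 difference from each gene's own mean in the wild type without ethanol, which lies at 0. For PHO81, SPL2, PCL5 and PHO84 the mutant without ethanol lies between the wild type without ethanol and both groups in the ethanol medium. For PHO84 and PHO5 it lies within 0.27 of its own ethanol-medium level.

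For PHO4 the nearest genes were CCP1, GLG2 and GLY1 (0.0651 to 0.0753, own deviation 0.195). For PHO80 they were CDC10, MSW1 and SUI3 (0.0284 to 0.0340, own deviation 0.159), and for PHO85 PEX2, YPT11 and LSB3 (0.0263 to 0.0341, own deviation 0.128). For VIP1 they were HPT1, CRH1 and KIP1 (0.0564 to 0.0654, own deviation 0.123), and for DDP1 ERV14, MHR1 and YOR131C (0.0255 to 0.0296, own deviation 0.0615). None of these 15 genes stands in the pathway lists. Differences of this size lie near or below the spread between arrays of a group, whose middle value over all genes was an SD of 0.0698.

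On the chromosome, the 8 regulators share no neighbour. PHO81 (YGR233C) starts opposite YHB1, the flavohaemoglobin, which rose in the ethanol medium by 0.49 in the mutant (adjusted p = 6.63e-06) and by 0.60 in the wild type (adjusted p = 4.78e-07). Without ethanol YHB1 was 0.12 higher in the mutant (adjusted p = 0.0452). PHO80 (YOL001W) starts opposite IZH2, which fell with it in the ethanol medium, with log2 changes of -0.73 in the mutant and -0.70 in the wild type. PHO85 (YPL031C) starts opposite TRM44, which changed by -0.22 in the mutant and -0.28 in the wild type in the ethanol medium, against changes of PHO85 of 0.35 in the mutant and 0.07 in the wild type. DDP1 (YOR163W) starts opposite YRR1, which rose by 0.60 in the mutant and by 0.27 in the wild type in the ethanol medium, where DDP1 changed by -0.13 in the mutant and 0.03 in the wild type. VIP1 (YLR410W) starts opposite UTP21, which changed by -0.52 in the mutant and -0.59 in the wild type in the ethanol medium, against changes of VIP1 of 0.10 in the mutant and 0.19 in the wild type. PHO2 (YDL106C) starts opposite NSE4, which changed by 0.08 in the mutant and 0.05 in the wild type and was not called. Between media, neighbours that start opposite each other moved in the same direction for PHO81 and PHO80, and in different directions for PHO85 and DDP1 in the mutant and for VIP1 in the wild type.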

How the data were processed

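RNA of 12 cultures was measured on 1 array each. The deposited values are linear intensity values made by the authors with RMA, per the submitters' processing notes, whose version is not given in the sources used here. Their log2 was taken without a pseudocount. Of 10928 probe sets, 5498 carried a yeast gene, which gave 5449 genes. Each gene was read on 1 probe set, and 47 genes had more than 1 to choose from. Symbols were updated for 12 genes through RefSeq's table of assembly R64, used only for names and neighbours. Group means were fitted with limma 3.58.1 in R 4.3.3 over 11 arrays (7 residual degrees of freedom), with eBayes and Benjamini-Hochberg adjustment over all 5449 genes. The fit was tested on simulated data, with 200 genes changed in the mutant without ethanol. Between strains without ethanol it called 69 of 100 genes changed by 0.25 on the log2 scale and 95 of 100 changed by 0.5. It made 3 false calls, and smaller changes were not simulated. The simulated noise was independent between arrays, and only 200 genes changed, where 890 were called between these groups in the real data. Rates of recovery and of false calls in the real data can differ from these and were not measured. The number of arrays limits the precision.

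The regulators, the gene lists and the tests were chosen with earlier results of these data known. Named genes are the 8 regulators, up to 3 genes a list with the smallest p in a comparison, the 3 genes most like each called regulator, their neighbours, SPT15 and URA3. PHM8, BAS1, PHO87, HO, SYG1 and others named where a count was 5 or fewer were chosen after their values were seen, as were the 2 diagonal comparisons and the neighbours. Alternatives were the fit of all 12 arrays, with and without weights per array, a block for the replicate number, aligned medians, repeated quantile scaling, a filter on dim genes, a variance trend, only the groups compared, and each array left out. Promoter motifs were not analysed here.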

Additional observations from a re-analysis of the deposited data

Results flagged for a closer look

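The response of PHO81 to the ethanol medium differed between the strains by -0.374 on the log2 scale (mutant minus wild type, adjusted p = 0.0339 with limma), from changes of 0.71 in the mutant and 1.09 in the wild type. It is listed here because the effect of the medium differed between 2 strains by a test of the difference itself. The sign held with each array left out, and the call was lost in 9 of those 11 fits, as given above.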

How the results depend on the processing

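With all 12 arrays and no weights, the share of all genes called was 0.00% between strains in the ethanol medium and 0.239% without ethanol. It was 13.7% between media in the mutant, 7.49% in the wild type and 0.0551% for the difference of responses. Of the regulators, 0 were called between strains in the ethanol medium and 0 without ethanol. Between media 0 regulators were called in the mutant and 1 in the wild type (PHO81), and 0 for the difference of responses. Their changes between strains in the ethanol medium then turned to 0.10 for PHO2, -0.22 for PHO4, 0.29 for PHO80, -0.17 for PHO81, -0.26 for PHO85, -0.33 for KCS1 and -0.17 for VIP1, and those between media in the mutant to 0.15 for PHO2, 0.12 for PHO80, -0.040 for PHO85 and -0.16 for VIP1. The difference of responses turned to 0.39 for PHO80 and -0.11 for PHO85. The array brought back is the one titled an outlier, whose background was 10.78. On it PHO2, PHO4, PHO85, KCS1 and DDP1 read below that background, PHO81 at it, and PHO80 and VIP1 above it.

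With array weights over the 12 arrays, 7 regulators were called between strains without ethanol, where 50.1% of all genes were, and 3 for the difference of responses, where 8.92% were. Values near 0 turned sign, to 0.0076 for DDP1 between strains without ethanol, 0.026 for PHO2 between media in the mutant and 0.0021 for PHO80 in the difference of responses. With only the groups compared, 0 were called between strains in the ethanol medium, where 0.110% of all genes were, and 4 without ethanol, where 22.6% were. With aligned medians, DDP1 between strains without ethanol turned to 0.016, PHO2 between media in the wild type to 0.015 and PHO2 in the difference of responses to -0.015. With repeated quantile scaling, KCS1 between strains in the ethanol medium turned to -0.022 and PHO2 in the difference of responses to -0.0067. The filter on dim genes and the variance trend turned no sign. The cause of these changes was not tested.

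With the replicate block, 4 regulators were called between strains without ethanol (PHO85, adjusted p = 0.0361, and VIP1, adjusted p = 0.0418, beside PHO81 and PHO4), where 18.9% of all genes were, and KCS1 between strains in the ethanol medium turned to -0.0020. The block also called PSE1 lower in the wild type between media (adjusted p = 0.0360), SYG1 lower there (0.0193) and a smaller response of PHO86 in the mutant (0.0380), and it lost SIC1 in the mutant between media (0.0632) and the difference of responses of SPL2 (0.0582). Of 15 pairs of arrays with the same number, 11 deviated together at r over 0.1 (r = -0.247 to 0.709), and the other 4, all with the wild type without ethanol, did not. Among the 3 groups of 3 arrays, the best match of an array in another group had its own number in 6 of 18 cases. Since not every pair did, the numbers were not taken to pair the cultures.

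With each array left out in turn, 0 to 2 regulators were called between strains in the ethanol medium, 1 to 3 without ethanol, 5 between media in the mutant, 3 to 4 in the wild type and 0 to 3 for the difference of responses. The share of all genes called moved too, given here for the fits that kept at least 2 arrays in each group. It was 3.38% to 24.3% between strains in the ethanol medium and 8.33% to 17.9% without ethanol. Between media it was 55.1% to 63.9% in the mutant and 53.8% to 59.8% in the wild type. For the difference of responses it was 0.294% to 8.22%. Log2 changes near 0 spanned both signs: PHO2 from -0.099 to 0.00059 and KCS1 from -0.023 to 0.039 between strains in the ethanol medium, DDP1 from -0.019 to 0.0063 without ethanol, PHO2 from -0.055 to 0.044 between media in the mutant and from -0.050 to 0.0088 in the wild type. In the difference of responses PHO2 spanned -0.041 to 0.058, PHO4 -0.12 to 0.042, PHO80 -0.095 to 0.017 and KCS1 -0.057 to 0.0052. With 2 or 3 arrays a group, small changes can be missed.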
